A study of Homo sapiens with 8 samples.

Results

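RNA polymerase III (Pol III) is the enzyme that copies the genes of transfer RNAs, 5S ribosomal RNA, U6 and other small untranslated RNAs. The 9 genes described here, POLR3A, POLR3B, POLR3C, POLR3D, POLR3E, POLR3F, POLR3G, POLR3GL and POLR3K, encode subunits of that enzyme and were taken by symbol from the 63677 genes of the count tables. POLR3C and POLR3GL each matched a second gene identifier with 0 counts in every library, and the identifier with the counts was used. All 9 genes passed the filter on low counts in every comparison below.

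RNA was sequenced from human myeloma cell lines (HMCLs) labelled JJN3 and H929, grown in culture and exposed for 24 h to THZ1 at 50 nM or to its vehicle DMSO. THZ1 is a covalent inhibitor of CDK7, the kinase of the general factor TFIIH that phosphorylates RNA polymerase II, so the comparison asks how the mRNAs of a second polymerase stood when the first was inhibited. Each line and treatment had 2 libraries, 8 in all, and no group carried any other agent or allele in the labels. The labels do not say whether the 2 libraries of a group came from separate cultures, so p-values measure only the spread between these libraries, which may be technical.

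Total counts ran from 17476443 to 19194371 per library, at which a count of 3 corresponds to 0.156 to 0.172 CPM (counts scaled to a library's total). The labels were checked against genes that mark the lines. FGFR3, the translocation target known for H929, was counted 45 and 285 times under the label H929 DMSO and 14117 and 13411 times under the label H929 THZ1. MAF, the translocation target known for JJN3, was counted 18006 and 16310 times under the label H929 DMSO, next to 16305 and 16840 in JJN3 DMSO, and 2729 and 2942 times under the label H929 THZ1. The paper reports aberrant activation of MAF protein in H929, and less MAF mRNA there after THZ1 at a lower dose. MAF counts alone thus do not check that label. WHSC1, the other translocation target known for H929, was counted 3362 and 3123 times in JJN3 DMSO, 6544 and 7026 times under the label H929 DMSO and 15702 and 16276 times under the label H929 THZ1. The FGFR3 counts of the libraries labelled H929 DMSO thus went against their label while WHSC1 stood above JJN3. Over 16122 genes, log2 CPM correlated at 0.777 to 0.812 between the libraries labelled H929 DMSO and H929 THZ1. The values were 0.795 to 0.810 between JJN3 DMSO and labelled H929 DMSO, and 0.966 to 0.972 between JJN3 DMSO and JJN3 THZ1. An effect of THZ1 cannot be told apart from these differences in the contrast between the H929 labels. Falls and rises given for the labelled H929 libraries are differences between labels. The JJN3 comparison used none of these libraries. All 8 plasma cell markers were detected in all 8 libraries, and of the markers of other cells CD14, LYZ, CD3D and PAX5, of monocytes, T cells and B cells, had at most 12 counts in any library. The B cell marker MS4A1, the T cell marker CD3E and the epithelial marker EPCAM had more and are given beside the comparisons.

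Pol III is built around 2 large subunits, POLR3A and POLR3B, which form the active site together. POLR3K sits at the edge of that site and takes part in transcript cleavage and termination. POLR3D and POLR3E form a pair that acts in initiation and termination, and POLR3C, POLR3F and either POLR3G or POLR3GL form a trimer needed for initiation. POLR3G and POLR3GL are alternatives for the same place in the enzyme. POLR3G is known for its high level in pluripotent and transformed cells and POLR3GL for its presence in most differentiated cells.

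In JJN3, most of the 9 subunit mRNAs fell with THZ1. Of the 9, 7 fell past both limits of the test, an adjusted p under 0.05 and a log2 fold change beyond 0.5 by edgeR (quasi-likelihood test, p adjusted by Benjamini-Hochberg over all genes tested). Among all 13984 genes tested, 21.3% fell and 20.6% rose by that rule. POLR3A and POLR3GL passed the p limit alone, so all 9 subunits were below DMSO at an adjusted p under 0.05 and the test called 0 higher, as did DESeq2. The median log2 fold change of the 9 subunits was -0.77, beside -0.00 over all genes tested, and the values ran from -1.02 for POLR3C to -0.31 for POLR3GL. That median is the value of POLR3B, which is also among the 7 that fell. The paper selected POLR3B partly for sensitivity to THZ1, so the count and the median are not fully independent of that selection. These are bulk libraries compared on a relative scale, so fewer cells that express a gene and less of its RNA per cell cannot be told apart. The scaling itself places the median of all genes near 0, and with total counts it was -0.10. A loss of mRNA shared by all genes would not show on this scale.

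POLR3B, the second-largest subunit, lies on the forward strand of chromosome 12 (ENSG00000013503, GRCh37 chr12:106751526-106903976), where 28 exons of its main transcript spread over 152 kb, the longest span of the 9 genes. The study lists a primer pair for this transcript, shown here because it marks where POLR3B mRNA can be read outside these libraries. The list covers genes that the paper selected for large enhancer clusters in myeloma and for sensitivity to THZ1, and then measured by qPCR. The fall of POLR3B with THZ1 given below is therefore not independent of that selection. The forward primer matched exon 13 (chr12:106821087-106821108) and the reverse primer matched exon 14 (chr12:106824090-106824111), they bound a product of 111 bases, and neither matched a transcript of another gene.

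POLR3B forward primer: acatgcgccaagaccagatcac

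POLR3B reverse primer: gagacagcacttgggttacacc

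The DNA before the first annotated start of POLR3B is shown with a CCAAT box, the site read by the factor NF-Y, in capitals on the reverse strand (ATTGG). It covers chr12:106751276-106751525 on the forward strand, and all positions given here are those of GRCh37.

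POLR3B upstream: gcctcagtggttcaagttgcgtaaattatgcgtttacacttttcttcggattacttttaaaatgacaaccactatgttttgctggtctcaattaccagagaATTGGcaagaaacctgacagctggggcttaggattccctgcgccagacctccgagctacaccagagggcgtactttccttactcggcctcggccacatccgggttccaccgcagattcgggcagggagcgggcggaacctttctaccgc

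A second start of POLR3B in the GENCODE annotation lies inside the first intron of the main transcript. The 39 bases before it (chr12:106751821-106751859, forward strand) hold the NRF1 motif GCATGCGC, in capitals on both strands, where 2 of the 3 matches overlap each other. NRF1 is an activator of many housekeeping genes.

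POLR3B second start: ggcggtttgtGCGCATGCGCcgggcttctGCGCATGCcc

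In JJN3, POLR3B stood at 56.2 and 62.8 CPM with DMSO and at 35.7 and 33.2 CPM with THZ1 (CPM after edgeR's TMM scaling), and the groups did not overlap. The means were 59.5 ± 4.63 CPM and 34.5 ± 1.82 CPM (SD, n = 2 each). The log2 fold change was -0.77 (SE 0.095, 95% confidence interval -0.98 to -0.57), a level that fell by 41.5%, with a Benjamini-Hochberg adjusted p = 4.47e-05 by edgeR. Of all genes tested, 13.5% had a log2 fold change as low as that of POLR3B or lower.

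POLR3A (ENSG00000148606, chr10:79712906-79789280, reverse strand), the largest subunit and the partner of POLR3B in the active site, moved less. It had 48.1 and 44.8 CPM with DMSO and 34.1 and 33.4 CPM with THZ1 in JJN3. Its log2 fold change was -0.45 (SE 0.090, 95% confidence interval -0.64 to -0.25, adjusted p = 0.00136 by edgeR with Benjamini-Hochberg adjustment), under the limit of 0.5. Without DMSO replicate 2 it was -0.51, past the limit. The interval of POLR3A overlaps that of POLR3B.

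POLR3K (ENSG00000161980, chr16:96407-103608, reverse strand), the small subunit of the cleavage site, was the scarcest of the 9 by count in JJN3, where 326 and 368 reads were counted with DMSO against 168 and 176 with THZ1. On the scale of CPM this was 16.9 and 18.8 against 10.3 and 9.78. The change was -0.82 on the log2 scale (SE 0.13, edgeR with Benjamini-Hochberg adjusted p = 0.000299), with the widest interval of the 9 subunits, -1.11 to -0.53.

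POLR3D (ENSG00000168495, chr8:22102646-22112114, forward strand) and POLR3E (ENSG00000058600, chr16:22308696-22346422, forward strand), the initiation and termination pair, both fell. POLR3D dropped from 49.7 and 51.3 CPM to 27.7 and 28.1 CPM, a log2 fold change of -0.84 (SE 0.090, 95% confidence interval -1.04 to -0.64, adjusted p = 1.72e-05 by edgeR with Benjamini-Hochberg adjustment). POLR3E had 107 and 113 CPM with DMSO and 68.1 and 74.4 CPM with THZ1, a log2 fold change of -0.61 (SE 0.084, 95% confidence interval -0.79 to -0.43, adjusted p = 9.88e-05 by edgeR with Benjamini-Hochberg adjustment). Replicates of each group lay well within the distance between the groups for both genes.

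The DNA before POLR3E (chr16:22308480-22308695, forward strand) is shown because it holds a match to the B box, GTTCGANTC, in capitals. The B box is the internal promoter element of tRNA genes, bound by the Pol III factor TFIIIC. The match may thus lie inside a tRNA gene next to POLR3E, which was not tested, and is not shown to act on POLR3E.

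POLR3E upstream: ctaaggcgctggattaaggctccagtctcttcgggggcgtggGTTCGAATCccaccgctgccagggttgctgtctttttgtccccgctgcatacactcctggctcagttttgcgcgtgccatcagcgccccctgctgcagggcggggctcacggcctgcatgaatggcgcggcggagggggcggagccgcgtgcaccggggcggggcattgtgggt

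In the initiation trimer, POLR3C (ENSG00000186141) had the largest fall of the 9 subunits and POLR3GL the smallest. POLR3C went from 149 and 155 CPM to 71.7 and 76.7 CPM, a log2 fold change of -1.02 (SE 0.081, 95% confidence interval -1.20 to -0.84, adjusted p = 2.75e-06 by edgeR with Benjamini-Hochberg adjustment). POLR3F (ENSG00000132664, chr20:18447522-18465292, forward strand), which links the polymerase to the promoter-bound factor TFIIIB, went from 37.6 and 37.2 CPM to 26.8 and 21.7 CPM, a log2 fold change of -0.61 (SE 0.11, 95% confidence interval -0.86 to -0.36, adjusted p = 0.000781 by edgeR with Benjamini-Hochberg adjustment). Without THZ1 replicate 2 of JJN3 the log2 fold change of POLR3F was -0.47, under the limit.

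POLR3G (ENSG00000113356, chr5:89767565-89810374, forward strand) and POLR3GL (ENSG00000121851), the alternatives for one place in the trimer, differed in size of response. POLR3G had 125 and 119 CPM with DMSO and 70.6 and 67.1 CPM with THZ1 in JJN3, a log2 fold change of -0.81 (SE 0.079, 95% confidence interval -0.98 to -0.64, adjusted p = 1.02e-05 by edgeR with Benjamini-Hochberg adjustment). POLR3GL had 61.6 and 58.0 CPM with DMSO and 51.0 and 44.7 CPM with THZ1, a log2 fold change of -0.31 (SE 0.092, 95% confidence interval -0.51 to -0.11, adjusted p = 0.0135 by edgeR with Benjamini-Hochberg adjustment). The intervals of both genes do not overlap. POLR3G shares 6.46% of its exon length with MBLAC2 on the opposite strand, and the sources used here do not say whether counting used strand, so reads there cannot be told apart.

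**Figure D1:**
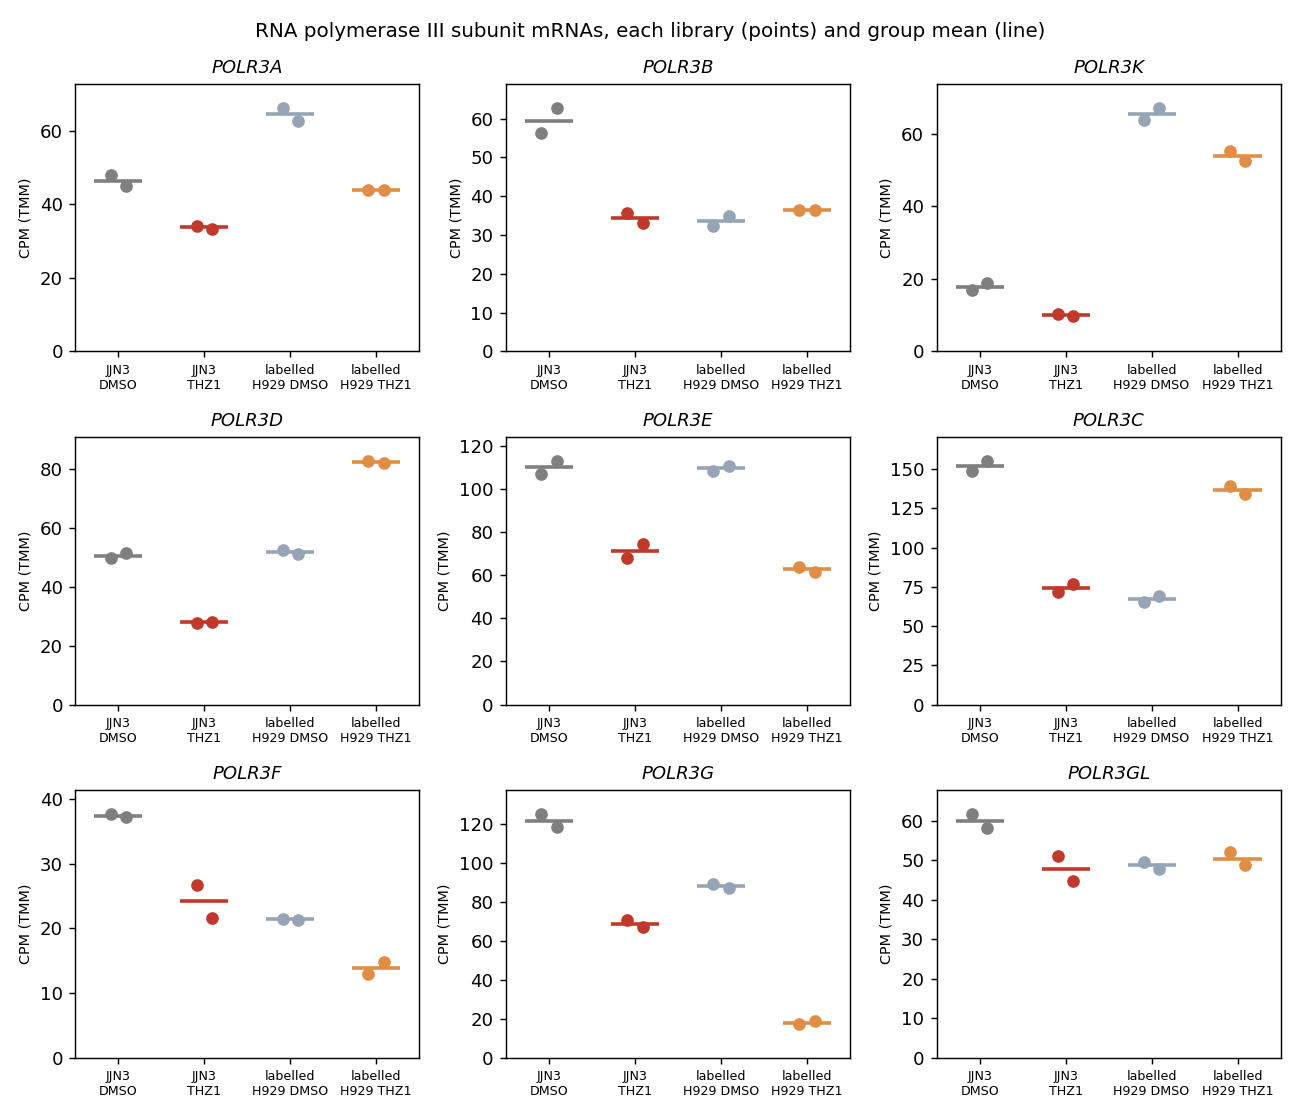
CPM after TMM scaling (vertical axes, linear from 0) of the 9 subunit mRNAs in each of the 8 libraries (points) with the group mean (line, n = 2). In JJN3 every THZ1 point lies below every DMSO point in all 9 panels, and the libraries labelled H929 show falls, rises and no clear change.

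**Figure D2:**
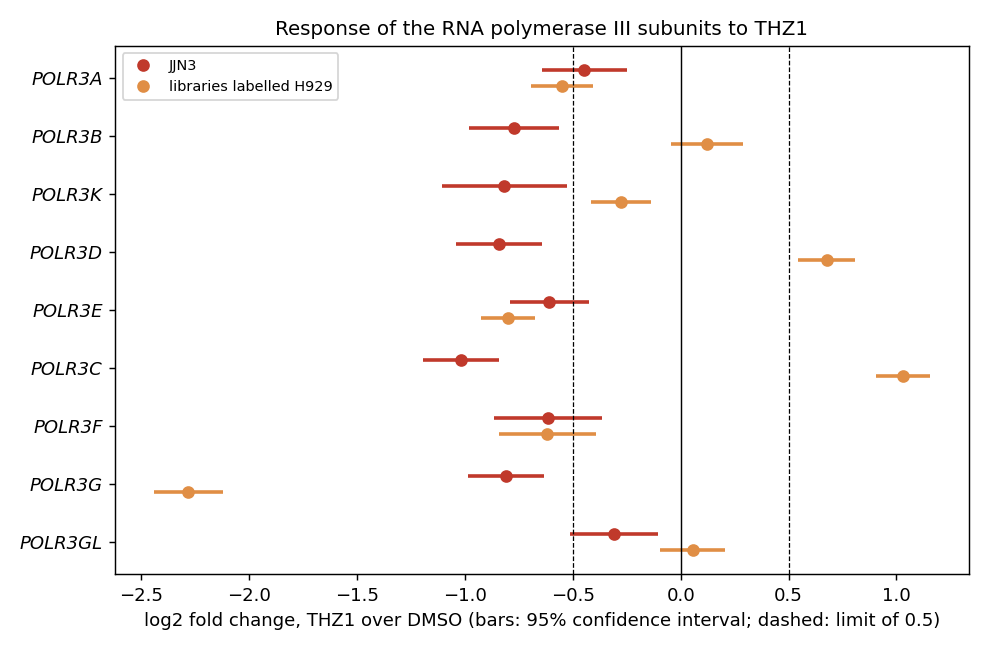
Log2 fold change of THZ1 over DMSO (horizontal axis) for the 9 subunits, with bars for the 95% confidence interval (red, JJN3, and orange, labelled H929 libraries). The JJN3 values all lie below 0, between -1.02 and -0.31, and the labelled H929 values spread from -2.28 for POLR3G to 1.03 for POLR3C.

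Summed over the 9 subunits, JJN3 held 655 ± 6.02 CPM with DMSO and 392.4 ± 5.02 CPM with THZ1 (SD, n = 2 each). Levels of different genes can be compared only per length, so CPM was divided by the length in kb of each gene's canonical transcript. On that scale POLR3GL was highest in JJN3 DMSO at 50.8 ± 2.15 CPM per kb (SD, n = 2), followed by POLR3C at 40.2 ± 1.19 and POLR3G at 37.1 ± 1.39. POLR3E came next at 29.8 ± 1.119, then POLR3F at 17.3 ± 0.158, POLR3B at 14.2 ± 1.11 and POLR3K at 13.0 ± 1.02.

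POLR3D at 9.47 ± 0.212 and POLR3A at 7.03 ± 0.347 CPM per kb closed the order. The libraries of POLR3B and POLR3K overlapped, and no other pair of neighbours in the order did. The largest subunit was thus 7.22 times below POLR3GL per length. The order depends on the transcript used. With the length of all annotated exons POLR3GL was still highest, at 33.0 ± 1.40 CPM per kb, and POLR3A lowest, at 2.94 ± 0.145. There the libraries of POLR3C overlapped with those of POLR3B, POLR3B with POLR3E, and POLR3K with POLR3D.

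**Figure D3:**
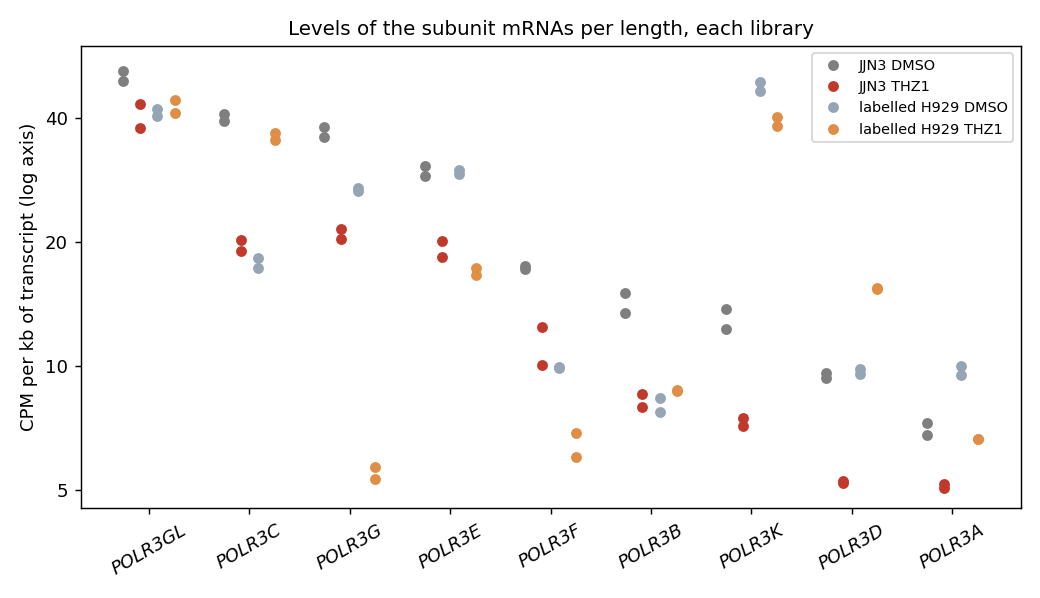
CPM per kb of canonical transcript (vertical axis, logarithmic) of the 9 subunit mRNAs in each library, ordered by the mean in JJN3 DMSO. POLR3GL is at the top in JJN3 with either treatment, and POLR3K, at 13.0 CPM per kb in JJN3 DMSO, is at the top in the libraries labelled H929 DMSO at 47.8.

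The ratio of POLR3G to POLR3GL per kb was 0.728 and 0.733 in JJN3 DMSO and 0.496 and 0.538 in JJN3 THZ1. Their means were 0.731 ± 0.00356 and 0.517 ± 0.0295 (SD, n = 2 each), and the groups did not overlap. In the libraries labelled H929 the ratio was 0.645 and 0.654 with DMSO and 0.120 and 0.137 with THZ1. An exact two-sided permutation test gave p = 0.333 for each line, the smallest p that 2 libraries against 2 allow, so these ratios could not pass a threshold.

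In the libraries labelled H929, the subunits did not move together. By the same rule, 4 of the 9 were lower with THZ1 (POLR3A, POLR3E, POLR3F and POLR3G) and 2 were higher (POLR3C and POLR3D). Among the 14863 genes tested, 32.6% were lower and 33.1% higher, so these counts are not read as particular to the subunits. The summed markers of plasma cells moved too, from 63127 and 65326 counts under DMSO to 215945 and 214397 under THZ1, and 6 of the 8 markers rose and 2 fell. EPCAM, an epithelial marker, had 2391 and 2249 counts under DMSO and 1 and 6 under THZ1. CD3E, a T cell marker, had 15 and 26 counts under DMSO and 640 and 650 under THZ1, and MS4A1 had 0 and 0 and then 0 and 4. The part of these differences between the labelled libraries in the subunits' values was not tested.

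POLR3G had the largest difference. Its counts were 1658 and 1579 under the label H929 DMSO and 333 and 354 under the label H929 THZ1. This was 89.1 and 87.4 CPM against 17.5 and 18.7 CPM, 4.86 times lower (log2 fold change -2.28, SE 0.075, 95% confidence interval -2.44 to -2.12, adjusted p = 1.61e-13 by edgeR with Benjamini-Hochberg adjustment). POLR3GL, its alternative, stayed between 47.8 and 52.1 CPM in all 4 libraries, with a log2 fold change of 0.05 (95% confidence interval -0.09 to 0.20). Per length of the canonical transcript, POLR3G was the third highest subunit in JJN3 DMSO and the lowest in the libraries labelled H929 THZ1, at 5.50 ± 0.257 CPM per kb (SD, n = 2). With the length of all annotated exons it was at 4.49 ± 0.210 there, above POLR3A at 2.78 and POLR3F at 2.05.

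POLR3C rose from 65.3 and 69.0 CPM to 139 and 134 CPM, a log2 fold change of 1.03 (SE 0.058, 95% confidence interval 0.91 to 1.15, adjusted p = 1.17e-10 by edgeR with Benjamini-Hochberg adjustment). POLR3D rose from 52.4 and 51.1 CPM to 82.6 and 82.1 CPM, a log2 fold change of 0.68 (SE 0.062, 95% confidence interval 0.54 to 0.81, adjusted p = 5.15e-08 by edgeR with Benjamini-Hochberg adjustment). The partner of POLR3D, POLR3E, went the other way, from 108 and 111 CPM to 63.9 and 61.3 CPM, with a log2 fold change of -0.80 (SE 0.058, 95% confidence interval -0.93 to -0.68, adjusted p = 2.91e-09 by edgeR with Benjamini-Hochberg adjustment). The pair, and the trimer, thus each held subunits that moved in opposite directions in the labelled H929 libraries. Among all genes tested there, either direction was common, at 32.6% lower and 33.1% higher.

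POLR3A fell from 66.2 and 62.7 CPM to 43.8 and 43.9 CPM (log2 fold change -0.55, SE 0.067, adjusted p = 1.55e-06 by edgeR with Benjamini-Hochberg adjustment). POLR3F fell from 21.4 and 21.3 CPM to 13.0 and 14.8 CPM (log2 fold change -0.62, SE 0.11, adjusted p = 5.41e-05 by edgeR with Benjamini-Hochberg adjustment). POLR3B did not pass the test, with 32.4 and 34.9 CPM against 36.4 and 36.6 CPM and a log2 fold change of 0.12 (95% confidence interval -0.04 to 0.29). POLR3K had a log2 fold change of -0.28 (95% confidence interval -0.42 to -0.14), under the limit of 0.5.

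Whether the responses of both labels differed was tested as an interaction term with edgeR, labelled H929 minus JJN3, on the 8 libraries together. The difference was positive and past both limits for POLR3B at 0.91 (95% confidence interval 0.65 to 1.17), POLR3C at 2.06 (1.84 to 2.27), POLR3D at 1.53 (1.31 to 1.75) and POLR3K at 0.55 (0.27 to 0.83). It was negative for POLR3G at -1.46 (-1.69 to -1.23). By that rule 28.1% of the 16122 genes tested had a positive difference and 25.5% a negative one. POLR3GL at 0.37 (0.12 to 0.62) passed the p limit alone, and POLR3E at -0.18 (-0.40 to 0.04) passed neither limit. For POLR3F the difference was 0.01 with an interval of -0.33 to 0.35, and for POLR3A it was -0.09 with an interval of -0.33 to 0.14. With total counts as the scaling the value of POLR3A was 0.049, and without JJN3 DMSO replicate 2 that of POLR3K was 0.49, under the limit. These tests rest on the libraries labelled H929 DMSO and cannot be made without them.

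Without THZ1, POLR3K set the labelled lines apart most. It had 16.9 and 18.8 CPM in JJN3 DMSO and 63.9 and 67.2 CPM in the libraries labelled H929 DMSO, 3.65 times more (log2 fold change 1.87, SE 0.082, 95% confidence interval 1.69 to 2.05, adjusted p = 5.99e-11 by edgeR with Benjamini-Hochberg adjustment). POLR3B, POLR3C and POLR3F were lower in the libraries labelled H929 DMSO, with log2 fold changes of -0.83, -1.18 and -0.81. Among the 14590 genes tested, 32.6% were lower and 33.0% higher, so 3 lower of the 9 subunits is close to the share of all genes and 1 higher is below it. POLR3D and POLR3E were close in level, with log2 fold changes of 0.03 (95% confidence interval -0.12 to 0.17) and -0.01 (-0.14 to 0.11). POLR3A at 0.47 (0.31 to 0.62), POLR3G at -0.47 (-0.60 to -0.35) and POLR3GL at -0.30 (-0.45 to -0.15) passed the p limit alone. POLR3A reached 0.50 without JJN3 DMSO replicate 1 or labelled H929 DMSO replicate 2, and POLR3G reached -0.53 without JJN3 DMSO replicate 2, both past the limit.

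The same comparison between the THZ1 libraries does not use those labelled H929 DMSO, and was added after the data were seen. There POLR3K was again higher in the labelled H929 libraries, at 55.2 and 52.6 CPM against 10.3 and 9.78 CPM (log2 fold change 2.45, SE 0.11, adjusted p = 2.87e-09 by edgeR with Benjamini-Hochberg adjustment). POLR3D at 1.58 and POLR3C at 0.90 were also higher, and POLR3G at -1.91 and POLR3F at -0.78 lower, where 34.0% of the 14981 genes tested were higher and 32.5% lower. For POLR3C the direction was the opposite of that between the DMSO libraries. POLR3B did not pass the test between the THZ1 libraries (log2 fold change 0.11, 95% confidence interval -0.10 to 0.31). Nor did POLR3GL at 0.10 (-0.11 to 0.31) and POLR3E at -0.16 (-0.35 to 0.02), and POLR3A at 0.40 (0.21 to 0.60) passed the p limit alone.

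The 9 genes lie on 7 chromosomes, and several start close to another gene. Protein-coding genes begin within 1000 bases on the other strand of POLR3C, POLR3F, POLR3GL and POLR3K. These partners were chosen by annotation after the data were seen. POLR3K and SNRNP25, a gene of the minor spliceosome, start 219 bases apart on chromosome 16. SNRNP25 had 1236 and 1237 counts in JJN3 DMSO, 671 and 692 in JJN3 THZ1, 1228 and 1230 in the libraries labelled H929 DMSO and 763 and 697 in those labelled H929 THZ1. SNRNP25 thus stood at nearly the same count in both DMSO groups, where POLR3K had 326 and 368 counts in one and 1189 and 1213 in the other. With THZ1 SNRNP25 fell in JJN3 (log2 fold change -0.66, SE 0.085, adjusted p = 5.9e-05 by edgeR with Benjamini-Hochberg adjustment) and in the labelled H929 libraries (-0.80, SE 0.070). The bases between both genes (chr16:103609-103827, written on the strand of POLR3K) are shown with 3 CCAAT boxes in capitals (CCAAT or, on the other strand, ATTGG).

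POLR3K to SNRNP25: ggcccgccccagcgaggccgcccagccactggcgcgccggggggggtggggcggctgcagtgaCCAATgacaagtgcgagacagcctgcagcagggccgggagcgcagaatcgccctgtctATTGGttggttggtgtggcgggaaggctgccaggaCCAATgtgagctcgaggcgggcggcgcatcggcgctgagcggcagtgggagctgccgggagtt

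POLR3GL and POLR3C lie 120 kb apart on chromosome 1, POLR3GL at chr1:145456236-145470400 and POLR3C at chr1:145590666-145611060, both on the reverse strand, and did not move alike. In JJN3 their intervals were -0.51 to -0.11 and -1.20 to -0.84, and in the labelled H929 libraries -0.09 to 0.20 and 0.91 to 1.15. The gene models of POLR3C and RNF115, a ubiquitin ligase gene, overlap at their starts by 43 bases on opposite strands. RNF115 had 3019 and 3161 counts in JJN3 DMSO and 3018 and 2979 in JJN3 THZ1, with a log2 fold change of 0.15 (95% confidence interval -0.03 to 0.34). POLR3C, beside it, had 2876 and 3029 counts and then 1174 and 1380. In the labelled H929 libraries RNF115 went from 1329 and 1352 counts to 2919 and 2819, a log2 fold change of 1.05 (SE 0.057), beside 1.03 for POLR3C. The pair thus parted in JJN3 and stood side by side in the labelled H929 libraries.

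ANKRD34A begins 114 bases from POLR3GL and fell further than POLR3GL. It had 671 and 692 counts in JJN3 DMSO and 237 and 320 in JJN3 THZ1 (log2 fold change -1.10, SE 0.12, adjusted p = 1.9e-05 by edgeR with Benjamini-Hochberg adjustment), and 609 and 564 against 93 and 121 in the labelled H929 libraries (-2.50, SE 0.12). The bases between them (chr1:145470401-145470514, written on the strand of POLR3GL) hold a CCAAT box on each strand, in capitals. In the annotation used here 21.1% of the exon length of POLR3GL is also assigned to another gene on the same strand. That other gene is not among the genes of the deposited counts, and an effect of the overlap on the count was not tested.

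POLR3GL to ANKRD34A: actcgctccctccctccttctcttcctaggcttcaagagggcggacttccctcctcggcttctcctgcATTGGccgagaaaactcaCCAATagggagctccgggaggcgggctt

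**Figure D4:**
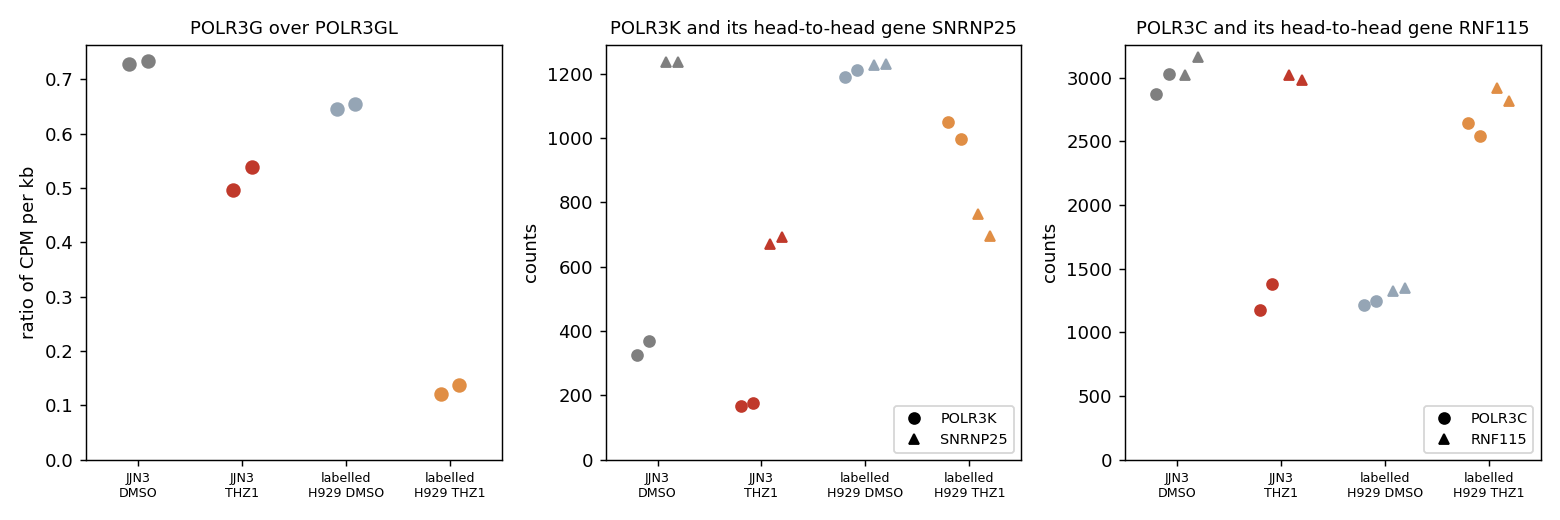
Ratio of POLR3G to POLR3GL in CPM per kb (left), and counts of POLR3K with SNRNP25 and of POLR3C with RNF115 (middle and right), for each library by group, on linear axes from 0. The ratio is lowest in the libraries labelled H929 THZ1, at 0.120 and 0.137, and RNF115 keeps its count in JJN3 THZ1 while POLR3C falls.

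Promoter windows of 300 bases (250 before and 50 after a start) from RefSeq were matched by symbol for 7 of the 9 genes. These were 9 windows, as POLR3B and POLR3C had 2 each, and were searched on both strands for 6 short motifs. The shares given beside them count windows and not genes. CCAAT was present in 4 of the 9 windows, of POLR3B, POLR3C, POLR3GL and POLR3K, and in 34.6% of all 35116 windows. In POLR3C it lay in another window than the E-box and ETS motifs given next. The E-box CACGTG, read by MYC and its relatives, was present in those of POLR3A, POLR3C and POLR3E and in 7.26% of all windows. CCGGAAG, read by ETS factors, was present in POLR3A and POLR3C and in 10.3% of all windows. GCATGCGC (NRF1) was found in POLR3B and in 3.05% of all windows, and GTTCGANTC (B box) in the window of POLR3E and in 0.253%. That B box match need not belong to the promoter of POLR3E, since it may lie inside a tRNA gene. TATAAA was found in none of the windows of these genes and in 11.5% of all. The 4 genes with CCAAT had log2 fold changes in JJN3 from -1.02 to -0.31, a range that covers those of POLR3A, POLR3E and POLR3F.

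The genes whose pattern over the 8 libraries was most like that of POLR3B were FANCI, GTF2A2, MRPS18C, PRKAG1 and UTP23. Likeness was measured as the root mean square difference of log2 CPM, each gene centred on its own mean, among 8957 genes whose average log2 CPM reached 3. FANCI, of the Fanconi anemia DNA repair pathway, differed from POLR3B by 0.056 and GTF2A2, a subunit of the general factor TFIIA, by 0.063. MRPS18C, a mitochondrial ribosomal protein, differed by 0.066, PRKAG1, a subunit of the AMP-activated kinase, by 0.078, and UTP23, of the small ribosomal subunit processome, by 0.081. FANCI had 211 and 221 CPM in JJN3 DMSO, 137 and 131 in JJN3 THZ1, 125 and 140 in the libraries labelled H929 DMSO and 143 and 145 in those labelled H929 THZ1. The other subunits were farther from POLR3B. POLR3GL was nearest at 0.22, with 301 genes closer, and POLR3K farthest at 1.26. Much of this likeness is a difference between groups of 2 libraries, so it rests on 4 groups.

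Pol III also needs subunits beyond these 9, initiation factors and enzymes that mature its products. Among all genes tested in JJN3, 21.3% fell and 20.6% rose, and the counts below are to be read beside these shares. Of 8 other subunits, CRCP of Pol III alone and 7 that it shares with other polymerases, 2 fell in JJN3 and the other 6 passed in neither direction, with a median log2 fold change of -0.093. They were POLR2H at -1.26 (SE 0.094), common to all nuclear polymerases, and POLR1C at -0.90 (SE 0.099), shared with polymerase I. POLR2H had 1676 and 1930 counts under DMSO and 648 and 668 under THZ1. The 9 subunits described above had a median of -0.77 in the same libraries.

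Of 19 initiation factors and regulators, 8 fell and 2 rose in JJN3, with a median of -0.30. The largest falls were SNAPC5 at -1.18 (SE 0.11) and GTF3C2 at -0.96 (SE 0.083), of the complexes SNAPc and TFIIIC that bind Pol III promoters, and BRF2 at -0.82 (SE 0.21), a TFIIIB subunit used at U6 genes. The rises were POU2F1 at 0.97 (SE 0.12), an octamer-binding activator, and BDP1 at 0.74 (SE 0.11), the TFIIIB subunit common to all Pol III promoters. BDP1 had 1365 and 1138 counts under DMSO and 1870 and 1779 under THZ1, against the direction of the polymerase subunits. MAF1, the repressor of Pol III, was among those that fell, at -0.61 (SE 0.091), from 3169 and 3264 counts to 1622 and 2088.

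Of 20 genes of tRNA processing and export, 11 fell and the other 9 passed in neither direction, with a median of -0.56 and a highest value of 0.21. The largest falls named here were RPP25L at -1.43 (SE 0.14), POP5 at -1.30 (SE 0.10) and POP4 at -1.16 (SE 0.084), all of the RNase P and MRP family of proteins. POP5 had 720 and 754 counts under DMSO and 247 and 276 under THZ1. All of these values come from the edgeR fit of the JJN3 libraries, with the same limits as for the 9 subunits.

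Set beside the other polymerases, 3 of 6 subunits of polymerase I alone fell and 1 rose in JJN3, with a median of -0.68. They were CD3EAP at -1.37 (SE 0.14) and POLR1E at -0.94 (SE 0.11), which form a pair like that of POLR3D and POLR3E, and ZNRD1 at -0.90 (SE 0.16), the counterpart of POLR3K. The rise was TWISTNB at 0.58 (SE 0.090), of the polymerase I stalk. Of 7 subunits of polymerase II, POLR2G at -0.85 (SE 0.085) and POLR2I at -0.57 (SE 0.098) fell and POLR2A, its largest subunit, rose by 2.32 (SE 0.088), with a median of -0.32. POLR2A had 1819 and 1675 counts under DMSO and 7305 and 7966 under THZ1, while POLR3A, the corresponding subunit of Pol III, had 930 and 876 and then 558 and 601. Plasma cell markers moved as well in JJN3: 4 of 8 fell and the other 4 passed in neither direction, with summed counts of 81625 and 82676 with DMSO and 68093 and 71096 with THZ1. MS4A1 fell (log2 fold change -1.24, SE 0.35), from 48 and 72 to 28 and 16 counts, and CD3E rose (1.08, SE 0.30), from 36 and 32 to 75 and 50. EPCAM was counted between 1195 and 1373 times in the 4 libraries. The part of these markers in the subunits' values was not tested.

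**Figure D5:**
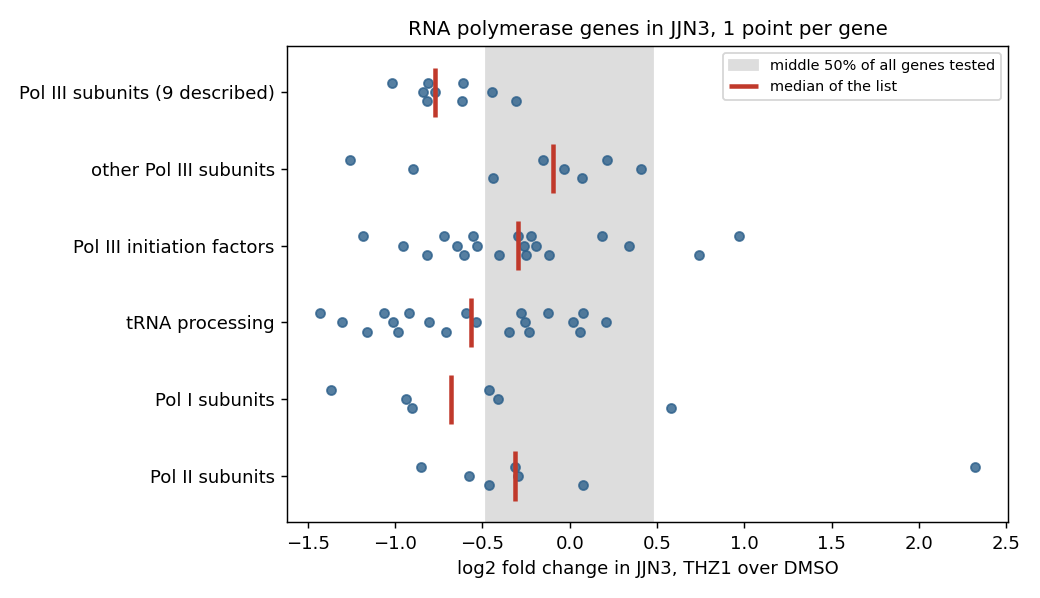
Log2 fold change in JJN3, THZ1 over DMSO (horizontal axis), 1 point per gene, for the 9 subunits and 5 lists of related genes, with the median of each list (red) and the middle 50% of all genes tested (grey, -0.48 to 0.48). The median of the 9 subunits is -0.77, and the highest point is POLR2A at 2.32.

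The products of Pol III themselves were barely counted. Of 20 such RNAs, the highest count in any library was 46, and 7 to 13 of the 20 had 0 counts in each library. RN7SL1, the RNA of the signal recognition particle, had 1 and 1 counts in JJN3 DMSO and 12 and 11 in JJN3 THZ1, and 31 and 45 against 9 and 2 in the labelled H929 libraries. RN7SK, the RNA that holds the elongation kinase P-TEFb inactive, had 1 and 2 counts and then 23 and 11 in JJN3. Reads that map to several places were left out of these counts, and both RNAs have many copies in the genome, so no fold is given and the output of the enzyme was not measured here.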

How the data were processed

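Total RNA of 8 libraries was sequenced with single-end reads by the authors, who aligned them to hg19 with STAR 2.5.2a, kept reads with 1 place in the genome and counted them for each Ensembl gene with featureCounts. The deposited values are these raw counts. Total counts ran from 17476443 to 19194371. The authors also deposited DESeq2 1.12.4 tables per line, with a mean, a log2 fold change, its error and p-values, of which only the column of gene symbols was used. The 9 subunits were matched to gene identifiers by that column.

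Counts were tested with edgeR 4.0.16 in R 4.3.3 (TMM, filterByExpr, quasi-likelihood test, Benjamini-Hochberg adjustment over all genes tested, limits of 0.05 on the adjusted p and 0.5 on the log2 fold change), within each line, between lines and as an interaction over all 8 libraries. The test was tried on simulated data with known changes. SE is the size of the log2 fold change divided by the root of F. Levels are CPM after TMM scaling. The floor of 3 counts covers counting error only, since reads are not independent molecules. Gene models are GENCODE 44 on GRCh37. Promoter windows are RefSeq sequences of GRCh38.p14, placed on GRCh37 by exact match. Primer sequences are from the study's supplement. Alternatives were DESeq2 1.42.0, its size factors or total counts, other filters and limits, all 8 libraries in one fit, the replicate block and leaving out each library. By rule, all 9 subunits were named in every comparison, with up to 3 falls and 3 rises per related list in JJN3 and the 5 genes most like POLR3B, and the remarks on RNF115, SNRNP25, ANKRD34A and MAF1 were added after their values were seen. The subunits and lists were chosen with earlier results of these data known. A few genes of the related lists are not reported here and are left out of the counts and medians given for those lists.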

Additional observations from a re-analysis of the deposited data

Results flagged for a closer look

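The contrast of THZ1 with DMSO differed between the labelled lines by the interaction test for 5 subunits, given as log2 differences, labelled H929 minus JJN3. Of the 9 subunits 4 were positive and 1 negative, where 28.1% of the 16122 genes tested were positive and 25.5% negative. The count of 5 is therefore not read as particular to the subunits. They were POLR3C at 2.06, POLR3D at 1.53, POLR3B at 0.91, POLR3K at 0.55 and POLR3G at -1.46. The contrast between the H929 labels also holds the differences in FGFR3 and MAF counts and across all genes, and an effect of THZ1 cannot be told apart from them. Without JJN3 DMSO replicate 2 the value of POLR3K was 0.49, under the limit of 0.5.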

How the results depend on the processing

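With a limit of 1 on the log2 fold change, 1 subunit was lower in JJN3 (POLR3C), 1 was lower and 1 higher in the labelled H929 libraries, 2 had a positive interaction, and 1 was lower in labelled H929 DMSO than in JJN3 DMSO. Over all genes that limit left 1006 lower and 1397 higher in JJN3, against 2972 and 2877, and 3146 lower in the labelled H929 libraries, against 4847. With the adjusted p alone, 5 subunits were lower and 2 higher in labelled H929 DMSO than in JJN3 DMSO. The other counts under changed limits are given without all genes beside them. They are therefore not read as particular to the subunits. Between the DMSO libraries, POLR3A reached 0.50, in the higher direction, without JJN3 DMSO replicate 1 or labelled H929 DMSO replicate 2. POLR3G reached -0.53, in the lower direction, without JJN3 DMSO replicate 2. With the THZ1 libraries in place of DMSO, 3 subunits were higher, where 34.0% of the 14981 genes tested were higher. There POLR3B (0.11), POLR3C (0.90) and POLR3GL (0.10) changed sign. In the comparison of the DMSO libraries values near 0 turned sign as 1 library was left out, for POLR3D (-0.0083 to 0.041) and POLR3E (-0.0625 to 0.012). In the interaction this held for POLR3F (-0.12 to 0.18) and, with total counts, for POLR3A (0.049), and POLR3GL reached 0.52 with total counts. In JJN3, POLR3A passed the limit with total counts (-0.55), which moved the median of all genes to -0.10, and without DMSO replicate 2 (-0.51).

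Replicate numbers gave no sign of a pairing of the libraries, which does not show that none existed. The numbers are those of the sample titles, and the JJN3 libraries carry other numbers in their short names. Deviations of same-numbered libraries correlated across genes at -0.02 in JJN3, -0.04 in the labelled H929 libraries and 0.05 between the DMSO groups. With the replicate number as a block 7 subunits were lower in JJN3, 4 lower and 2 higher in the labelled H929 libraries, as without it.

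With 2 libraries a group, the spread of a gene is borrowed from all genes. DESeq2 gave the same number of subunits in each direction as edgeR in all 4 comparisons.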
